A study of Mus musculus with 54 samples.

Results

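The genes described here are 10 components and targets of the Nodal and BMP pathways in mouse embryonic stem cells: Nodal, Lefty1, Lefty2, Tdgf1, Bmp4, Smad7, Skil, Id1, Id2 and Id3. Each accessible region (peak) of 1 merged list was given to a gene when its centre lay within 50 kb of a transcription start site (TSS) of that gene, on the genome build GRCm38 with the GENCODE M21 annotation. This gave 121 of the 113737 peaks in the list. A TSS peak had its centre within 1 kb of a TSS of the gene, and a distal peak lay more than 1 kb from every annotated TSS of any gene. There were 14 TSS peaks and 84 distal peaks, and the other peaks sat at the TSSs of neighbouring genes.

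Nodal is a secreted ligand of the TGF-beta family that signals through activin receptors and a coreceptor, CRIPTO, to SMAD2 and SMAD3, which reach many targets with the DNA-binding protein FOXH1. BMP4 signals through its own receptors to SMAD1 and SMAD5, and the Id genes are its best known direct targets. Both branches induce their own inhibitors, among them the Lefty proteins, SMAD7 and the corepressor SnoN, and in embryonic stem cells the BMP branch is known for holding back neural differentiation through the Id proteins.

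The peaks come from ATAC-seq, in which the transposase Tn5 cuts and tags open DNA. All libraries were of ZHBTc4 cells, an embryonic stem cell line in which doxycycline (dox) turns off untagged Pou5f1, the gene of OCT4. The cells also expressed the ubiquitin ligase Tir1 and mCherry-OCT4-AID, an OCT4 that is degraded after auxin (indole-3-acetic acid, IAA) is added. They carried YPet-MD, a cell cycle reporter, as well, and were kept with serum, LIF and the 2i inhibitors. Every sample had received dox at 1 ug/ml from 24 hr before the auxin regime, so untreated controls carried no untagged OCT4 either. In the cell cycle set (22 samples) cells had 26 hr of dox and 500 nM IAA for 2 hr or none, and were sorted into EG1, LG1, S (3 replicates each) and SG2 (2 replicates). In the washout set (16 samples) cells had 31 hr of dox, IAA for 2.5 hr or none, and 4.5 hr of washout, and were sorted into the same phases (2 replicates each). In the time course (16 samples) unsorted cells had 34 hr of dox and IAA for 30 min, 1, 2, 3, 4, 6 or 10 hr or none, with 2 replicates each. These 54 samples in 24 groups shared 1 parental line, and all of them fed 1 merged list.

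No peak in that list has a value for a sample, a group or a depth. It says where chromatin was open in at least some libraries, so gains and losses of accessibility with OCT4 were not analysed here, and no test of a difference could be made. The 10 genes are described beside all protein-coding genes that had a TSS peak. Shares of their peaks are set beside all distal or all TSS peaks of the list. The intervals given with shares are Wilson 95% intervals and cover counting error only.

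Each of the 10 genes had open chromatin at a TSS, and all had several distal peaks. Distal peaks were most numerous at Id1 and Smad7, with 15 each, and fewest at Skil and Id2, with 5 each. The TSS peaks were narrower than that of the median gene, except at the intracellular brakes Smad7 and Skil. A BMP response element, which is rare in the list, was found at Id2, Id3 and Skil, and the large peak upstream of Lefty2 held FOXH1, SMAD and OCT4::SOX2 matches together.

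A TSS peak was found at 10 of 10 genes, beside 70.8% of all protein-coding genes (15535 of 21938). Nodal, Lefty1, Lefty2, Smad7, Skil, Id1 and Id2 had 1 TSS peak, Bmp4 and Id3 had 2 and Tdgf1 had 3. Not every start site had a peak: of the 30 distinct TSSs annotated for the 10 genes, 23 had a peak centre within 1 kb (76.7%, interval 59.1 to 88.2%), beside 57.7% of 93513 TSSs of protein-coding genes. Inside a peak lay 19 of the 30 (63.3%, interval 45.5 to 78.1%), beside 51.3%, which this interval held. Neighbouring TSSs of 1 gene can share a peak, so the 30 are not independent and both intervals are too narrow. The 7 TSSs without a peak centre within 1 kb belonged to Lefty1, Lefty2, Skil and Smad7.

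**Figure D1:**
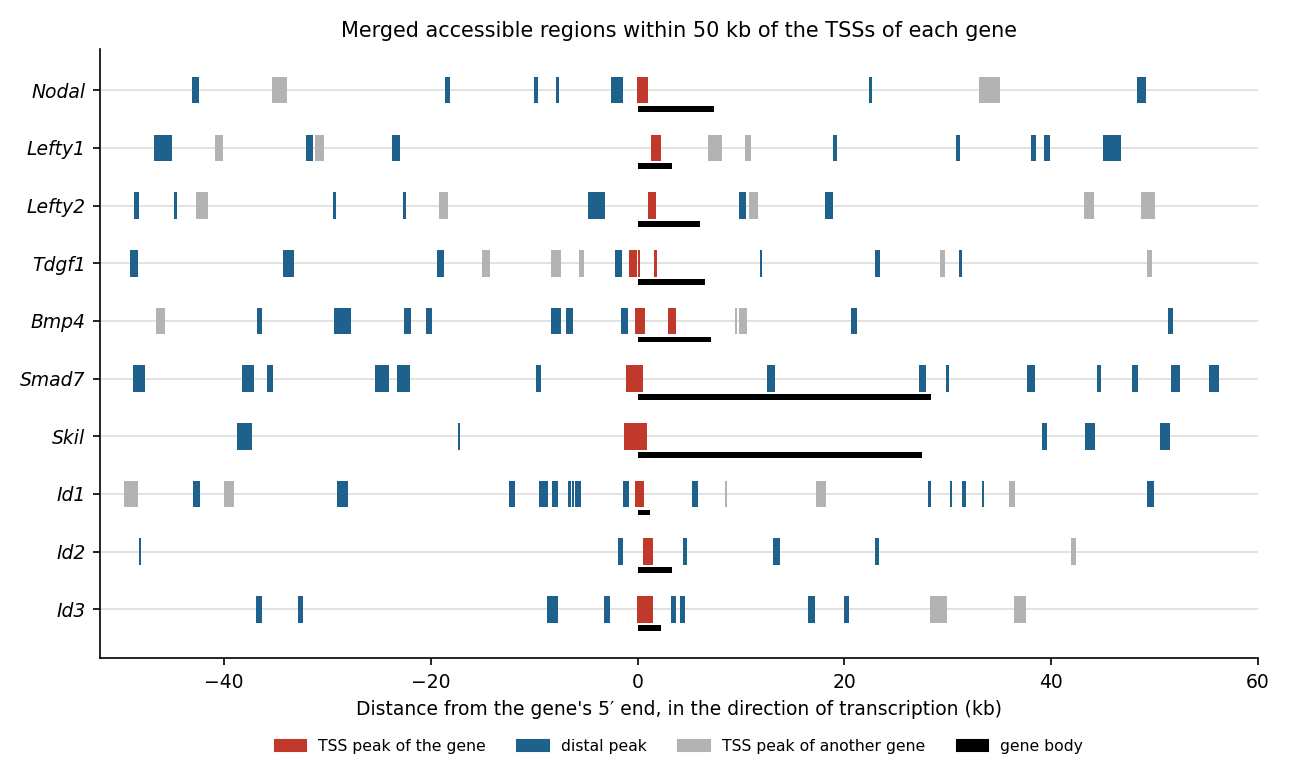
Peaks within 50 kb of the TSSs of each gene, drawn to scale by distance from the gene's 5′ end in the direction of transcription (kb). Red boxes are TSS peaks of the gene, blue boxes distal peaks, grey boxes TSS peaks of other genes and black bars the gene body. Id1 shows a run of distal peaks just upstream, and the gene bodies of Nodal and Skil hold no distal peak.

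Nodal (chr10:61417972-61425338, plus strand) had a TSS peak of 997 bp at its single TSS. Its 7 distal peaks lay at 2.01, 7.78, 9.85, 18.4 and 42.7 kb upstream and at 22.5 and 48.8 kb downstream. The peak 2.01 kb upstream was the widest of them, with 1122 bp, and was wider than 95.4% of all distal peaks. The next 2 upstream peaks, of 265 and 435 bp, also had Nodal as the nearest TSS of any gene. The remaining 4 were nearer to a TSS of another gene. Those 42.7 kb upstream and 22.5 kb downstream were centred in introns of Pald1 and Eif4ebp2. No distal peak was centred in the Nodal gene body. None of its distal peaks held a FOXH1, SMAD palindrome, OCT or OCT4::SOX2 match as defined for the motifs below.

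The genes of the Nodal antagonists, Lefty1 (chr1:180935022-180938400, plus strand) and Lefty2 (chr1:180893108-180899103, plus strand), lie beside each other and shared 4 of their distal peaks. Each had 1 TSS peak, of 932 bp at Lefty1 and 815 bp at Lefty2. Neither peak covered the 5′ end of its gene. They sat at a second annotated TSS, 1849 bp downstream of the 5′ end at Lefty1 and 1350 bp downstream at Lefty2, and the closest peak centres to the 5′ ends were 1759.5 and 1420 bp away. These second TSSs belong to transcripts without the basic tag of GENCODE, and with basic transcripts alone 8 of 10 genes had a TSS peak, Lefty1 and Lefty2 being the 2 that did not. Lefty1 had 9 distal peaks and Lefty2 had 8. The nearest was 3.99 kb upstream at Lefty2, and 17.3 kb downstream, in an intron of Tmem63a, at Lefty1.

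The peak 3.99 kb upstream of Lefty2 (chr1:180888280-180889966) spanned 1687 bp and was wider than 99.4% of all distal peaks. It lay in intergenic sequence, 45.9 kb upstream of Lefty1. It held 1 OCT4::SOX2 match, 2 FOXH1 matches with the letters AATCCACA and 1 SMAD palindrome, GTCTAGAC, all within 501 bp. It was the 1 of the 84 distal peaks with both a FOXH1 and a SMAD palindrome match, a combination picked after the matches in this peak were seen, and 27 of 89797 distal peaks in the whole list held both (0.0301%). Among the 523 distal peaks at least as wide, 2 held both (0.382%). The part of its width in this was not tested further. The stretches below show these matches in capitals, on the plus strand, which is the strand of both genes, from GRCm38.p6. In the first stretch (chr1:180888770-180889069) the capitals mark, in order, the OCT4::SOX2 match and the FOXH1 matches, and in the second (chr1:180889293-180889352) the SMAD palindrome.
Lefty2 upstream, first stretch: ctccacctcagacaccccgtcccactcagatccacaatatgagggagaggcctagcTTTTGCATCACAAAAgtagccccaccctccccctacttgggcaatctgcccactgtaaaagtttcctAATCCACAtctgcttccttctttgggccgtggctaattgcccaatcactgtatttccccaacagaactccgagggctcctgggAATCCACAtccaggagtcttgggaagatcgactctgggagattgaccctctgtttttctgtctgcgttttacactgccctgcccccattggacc
Lefty2 upstream, second stretch: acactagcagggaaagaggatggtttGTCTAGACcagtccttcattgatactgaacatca

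Tdgf1 (chr9:110939603-110946158, minus strand) encodes CRIPTO, the coreceptor for Nodal. It had 3 TSS peaks, of 307, 207 and 789 bp, more than any of the other genes, and its widest TSS peak was the narrowest among the 10. The 789 bp peak was centred 422 bp upstream of the 5′ end. Its 7 distal peaks included 1 at 1.86 kb upstream (chr9:110947650-110948379, 730 bp), the only one for which a Tdgf1 TSS was the nearest of all genes. The others lay among Fam240a, Lrrc2 and Rtp3. The peak at 1.86 kb held an OCT octamer match, ATTTGCAT, 19 bp from the peak centre. OCT matches also lay in a distal peak 37.7 kb upstream of Smad7 and in one 49.2 kb downstream of Skil. The Tdgf1 match is shown as the closest of them to a TSS of the 10 genes, a choice made after the matches were seen. In the stretch below, on the minus strand of chr9:110947946-110948045, the match is in capitals and reads on the opposite strand.
Tdgf1 upstream: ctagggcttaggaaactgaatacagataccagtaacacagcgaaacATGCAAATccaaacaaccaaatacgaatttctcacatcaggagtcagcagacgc

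Bmp4 (chr14:46383520-46390669, minus strand), the BMP ligand, had TSS peaks of 930 and 830 bp, the latter at an internal TSS 3365 bp from the 5′ end. Of its 9 distal peaks 7 lay upstream, at 1.27, 6.63, 7.88, 20.2, 22.2, 28.5 and 36.6 kb, and 2 lay downstream at 17.6 and 48.2 kb. Bmp4 had the nearest TSS of any gene for the first 5 of these upstream peaks. The next peak outside the window was 108.9 kb away, farther than at any of the other genes. The peak 28.5 kb upstream was the widest, with 1661 bp, and held a FOXH1 match 28.0 kb from the TSS. It is shown in capitals on the minus strand of chr14:46418642-46418701.
Bmp4 upstream: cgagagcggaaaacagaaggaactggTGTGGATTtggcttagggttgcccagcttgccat

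Skil (chr3:31095058-31122577, plus strand) encodes SnoN, a corepressor that binds SMADs. Its TSS peak of 2218 bp was the widest of the 10 and wider than those of 97.2% of protein-coding genes with a TSS peak. It had 5 distal peaks, 2 upstream and 3 downstream, and none in its gene body. The nearest lay 17.2 kb away, and no other protein-coding gene had a TSS in the window. The peak 42.0 kb downstream (chr3:31138380-31139304, 925 bp) held 2 OCT4::SOX2 matches and 1 FOXH1 match, and 41.2% of its bases were repeat-masked. They are shown in that order in the stretch chr3:31138773-31139052, plus strand, with the FOXH1 match reading AATACACA on the opposite strand. The nearest TSS to this peak was that of Cldn11, 11078 bp away.
Skil downstream: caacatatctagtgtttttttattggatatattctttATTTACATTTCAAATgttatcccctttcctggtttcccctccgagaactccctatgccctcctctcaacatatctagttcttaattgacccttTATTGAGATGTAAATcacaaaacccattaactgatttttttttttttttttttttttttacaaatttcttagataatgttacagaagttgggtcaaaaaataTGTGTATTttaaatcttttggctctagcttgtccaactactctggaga

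Smad7 (chr18:75367529-75395935, plus strand) encodes the inhibitory SMAD that blocks receptors of both branches. Its 1685 bp TSS peak was wider than those of 85.7% of genes. The TSS nearest to the centre of this peak, at 124 bp, was that of Gm20544, with that of Smad7 at 317 bp. Smad7 had 15 distal peaks between 5.52 and 48.4 kb from its TSSs, and 4 of them were at least 1 kb wide, all upstream. The 2 distal peaks centred in its gene body were the only ones within the body of any of the 10 genes. As at Skil, no other protein-coding TSS lay within 50 kb. The TSS peak held a SMAD palindrome 349.5 bp upstream of the TSS and a FOXH1 match 470.5 bp downstream, and the farthest downstream distal peak held a second palindrome.

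Id1 (chr2:152736251-152737410, plus strand) is 1 of 3 Id genes here, which encode helix-loop-helix proteins without a DNA-binding region that block other helix-loop-helix factors. It had a TSS peak of 947 bp and 15 distal peaks. The first lay 1.12 kb upstream, the nearest distal peak of the 10 genes, and 6 more lay between 5.74 and 12.1 kb upstream, where they filled 3108 of 6964 bp. Id1 had the nearest TSS of any gene for these 7 peaks. With 7 distal peaks within 10 kb it stood beside a median of 2 over the 10 genes and of 1 over protein-coding genes with a TSS peak. Of the 8 other distal peaks 2 lay upstream in H13 and 6 lay downstream, near Gm14162, Gm23802, Cox4i2 and Bcl2l1.

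Id2 (chr12:25093799-25097140, minus strand) had a TSS peak of 1023 bp and 5 distal peaks, of which the widest had 681 bp. They lay 1.66 and 48.2 kb upstream and 3.54, 12.4 and 22.1 kb downstream. Peaks covered 3.61% of its window, the lowest value of the 10 genes and the only one below the median of protein-coding genes with a TSS peak, 5.30%. Id3 (chr4:136143497-136145755, plus strand) had TSS peaks of 951 and 521 bp, almost adjoining, and 8 distal peaks. Those nearest to Id3 lay 2.98 kb upstream and 2.04 and 2.83 kb downstream, so both sides of this short gene were open. The only other protein-coding gene with a TSS in the window was E2f2.

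A match to the BMP response element was found in 3 of the 84 distal peaks (3.57%, interval 1.22 to 9.98%), beside 40 of 89797 distal peaks in the whole list (0.0445%), and in 2 of the 14 TSS peaks, beside 65 of 23940 (0.272%). The element is GGCGCC, any 5 bases, then GTCT, searched on both strands. It is known as the pair of sites at which SMAD1 or SMAD5 and SMAD4 bind together. The 10 genes include the Id genes, known targets of this branch, so these shares are not independent support for the element. Of the 3 distal peaks 2 lay at Id3, and the interval counts them as separate. Of the 105 peaks in the list with a match, 3 lay at Id3, 1 at Id2 and 1 at Skil. A peak with a match lay within 50 kb of 3 of the 10 genes and of 1.23% of the 15535 protein-coding genes with a TSS peak, and Id3 and its neighbour E2f2, which share these peaks, were the only genes with 3. The 5 sites carry this finding and are shown in the direction of their gene, with the letters of the element in capitals and the 5 free bases between them in lower case.
Id2, 1.72 kb upstream, chr12:25098832-25098891, minus strand: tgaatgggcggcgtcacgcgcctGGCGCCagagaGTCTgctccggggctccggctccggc
Id3, 2.95 kb upstream, chr4:136140518-136140577, plus strand: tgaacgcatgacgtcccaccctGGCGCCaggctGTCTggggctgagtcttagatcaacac
Id3, intron, chr4:136144786-136144815, plus strand: cctccctGGCGCCggccaGTCTgcggcatc
Id3, 3.01 kb downstream, chr4:136147959-136148018, plus strand: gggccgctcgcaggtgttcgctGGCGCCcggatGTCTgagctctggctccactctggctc
Skil, 492 bp upstream, chr3:31094537-31094596, plus strand: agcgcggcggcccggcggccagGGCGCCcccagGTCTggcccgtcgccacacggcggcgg

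All 5 sites read GGCGCC before GTCT in the direction of their gene. The 3 Id2 and Id3 sites in distal peaks lay 57.5, 31.0 and 182.5 bp from the centre of their peak. The peaks were rich in GC, with 70.4% at Id2 and 52.0 and 66.9% at Id3, beside a median of 47.7% over all distal peaks, and GGCGCC holds CpG. The part of base composition in these shares was not tested.

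Id1, whose promoter is the textbook example of this element, had no match to it as spelled in any of its peaks. Its peak 1.12 kb upstream (chr2:152734846-152735413) held GGCGCC 1.10 kb from the TSS, 25 bp from the peak centre, and 1.04 kb from the TSS a match to the whole element with 1 mismatch, C5T, counted from 1 at the first G of the element. The stretch chr2:152735055-152735254, plus strand, is printed with GGCGCC in capitals.
Id1 upstream: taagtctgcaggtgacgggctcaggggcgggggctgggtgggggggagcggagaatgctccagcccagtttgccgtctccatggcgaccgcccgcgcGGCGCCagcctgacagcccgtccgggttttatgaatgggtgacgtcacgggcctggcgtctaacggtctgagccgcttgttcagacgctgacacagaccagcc

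Because of this stretch, which was seen first, the element was also searched with up to 1 mismatch. It was then found in 10 of the 84 distal peaks (11.9%, interval 6.60 to 20.5%), beside 1.79% of all distal peaks. Of these 10 peaks 4 lay near Id1, 3 near Id3, 2 near Smad7 and 1 near Id2. None lay near Nodal, Lefty1, Lefty2, Tdgf1 or Bmp4. Here too the choice of the Id genes means that the share is not independent support. In TSS peaks the share was 3 of 14 (21.4%, interval 7.57 to 47.6%), beside 10.1% of all TSS peaks, with the matches at Smad7, Skil and Id3. GGCGCC alone was in 10 of the 84 distal peaks (11.9%), of which 4 lay near Id1, 4 near Id3 and 1 each near Id2 and Smad7, beside 5.08% of all distal peaks. In TSS peaks it was in 5 of 14 (35.7%), beside 37.5%.

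Id3 also had an OCT4::SOX2 match, in the peak 2.04 kb downstream (chr4:136146776-136147245, 470 bp). This peak lay between the gene and the downstream peak with the BMP response element, and it held an ESRRB match, TCAAGGTCA, as well. ESRRB matches were in 3 of the 84 distal peaks (3.57%), beside 3.11% of all distal peaks. The OCT4::SOX2 match is in capitals in the stretch chr4:136146869-136147168, plus strand.
Id3 downstream, OCT4::SOX2: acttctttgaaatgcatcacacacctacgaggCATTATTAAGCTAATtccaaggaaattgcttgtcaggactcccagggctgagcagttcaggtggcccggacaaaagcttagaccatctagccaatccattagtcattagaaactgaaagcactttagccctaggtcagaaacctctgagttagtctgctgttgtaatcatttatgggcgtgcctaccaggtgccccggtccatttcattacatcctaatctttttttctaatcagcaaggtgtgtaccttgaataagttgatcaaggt

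OCT4::SOX2, the composite site of OCT4 and SOX2, was matched by a 15-letter consensus with up to 2 mismatches. Matches were found in 3 of the 84 distal peaks (3.57%, interval 1.22 to 9.98%), beside 4.17% of all distal peaks. All 4 matches in these peaks, at Lefty2, Skil and Id3, carried 2 mismatches, and with up to 1 mismatch the share was 0 of 84, where 3 counts, the limit taken for a count of 0, would be 3.57%, beside 0.538% of all distal peaks. OCT octamers were in 3.57% and 3.05%, and FOXH1 matches (AATCCACA or AATACACA) in 3.57% and 4.11%. None of these shares lay outside the interval of the 84 peaks.

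The SMAD palindrome was in 2 of the 84 distal peaks (2.38%, interval 0.655 to 8.27%), near Lefty2 and Smad7, beside 0.543% of all distal peaks. KLF matches (GGGNGNGGC) were in 33.3% (interval 24.2 to 43.9%) beside 17.1%, and CTCF matches in 23.8% (interval 16 to 33.9%) beside 16.1%. SOX matches (CATTGT) were in 28.6% (interval 20.02 to 39.0%) beside 26.0%, which the interval held. In TSS peaks KLF matches were in 5 of 14 (35.7%, interval 16.3 to 61.2%), beside 51.3% of all TSS peaks. The 84 peaks had a median GC content of 52.8%, and were wider than other distal peaks. In a window of 300 bp centred on each peak, the same for all and reaching into the flanks of the peaks under 300 bp (20.2% of the 84 and 37.1% of all), KLF matches were in 22.6% (interval 15 to 32.6%) beside 12.1%, CTCF matches in 14.3% (interval 8.37 to 23.3%) beside 12.9% and SOX matches in 14.3% (interval 8.37 to 23.3%) beside 19.1%, so that the CTCF interval then held the share of all distal peaks. The SMAD palindrome was in 0 of 84 there, beside 0.312%, and the BMP response element in 2.38% beside 0.0223%. The part of GC content in these shares was not tested.

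**Figure D2:**
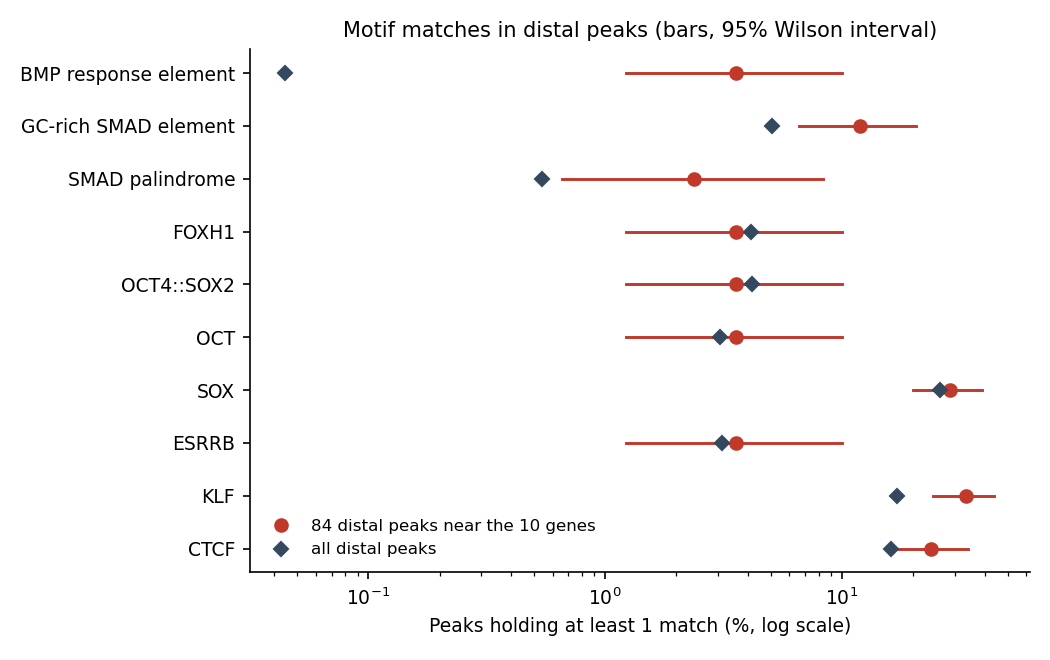
Share of distal peaks holding at least 1 match (%, log scale) for 10 motifs. Red points with bars are the 84 distal peaks near the 10 genes with Wilson 95% intervals, and dark diamonds are all 89797 distal peaks. The BMP response element stands at 3.57% and 0.0445%, while FOXH1, OCT and OCT4::SOX2 lie close together.

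In number, the 10 genes had between 5 and 15 distal peaks with a median of 8, beside a median of 5 (quartiles 3 and 8) for protein-coding genes with a TSS peak. Of the 10 genes 8 lay above that median and 2, Skil and Id2, lay at it. With a 20 kb window 7 lay above, 1 at and 2 below the median, and Smad7 had 2 distal peaks, the background median, while Id1 had 8. Nodal and Tdgf1 had 7, Lefty2 and Id3 had 8, and Lefty1 and Bmp4 had 9. The 15 of Id1 and of Smad7 were reached by 740 of the 15535 genes. Per 100 kb of window, which corrects for genes with spread TSSs, the median was 7.89 beside 4.42, and Id1 with 15 exceeded 99.5% and Smad7 with 14 exceeded 98.9% of the genes. Counted only where a gene's own TSS was the nearest of all genes, Smad7 kept 9, Id1 7, Bmp4 5, Nodal, Id2 and Id3 3 each, Lefty2, Tdgf1 and Skil 1 each and Lefty1 0.

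**Figure D3:**
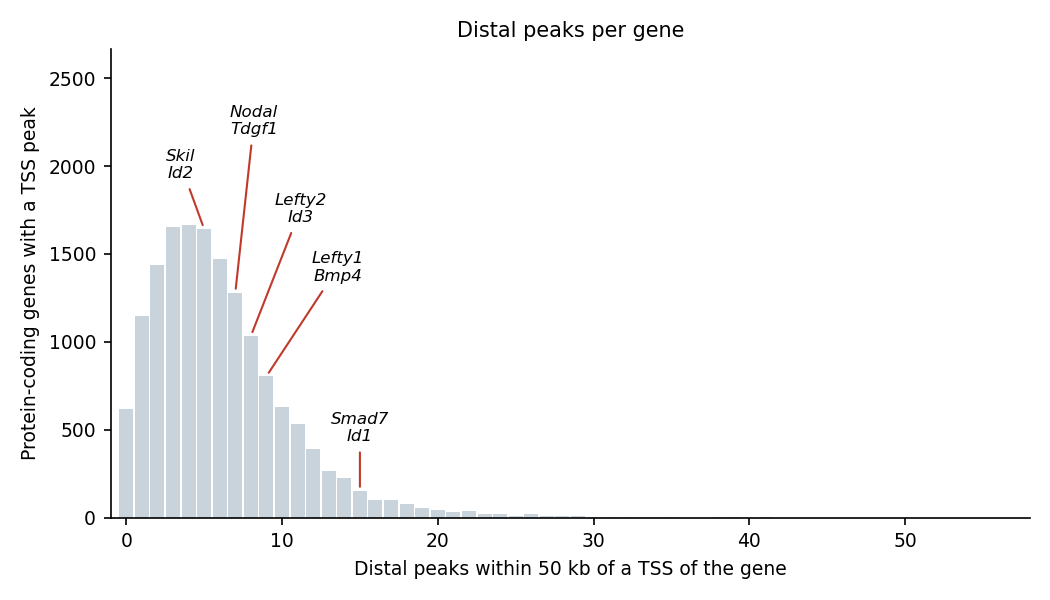
Distal peaks per gene in the 50 kb window (horizontal axis) over the 15535 protein-coding genes with a TSS peak (bars, number of genes). Red lines lead from the names of the 10 genes to their bars, from 5 at Skil and Id2 to 15 at Smad7 and Id1.

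The TSS peaks were narrow at most of the genes. The widest TSS peak per gene had a median width of 949 bp, beside 1219 bp over protein-coding genes with a TSS peak. Of the 10 genes 8 lay below that median and 6 below the lower quartile of 974 bp (Lefty1, Lefty2, Tdgf1, Bmp4, Id1 and Id3), and Smad7 and Skil lay above the median. With gaps of up to 500 bp between peaks joined, the medians were 1010 and 1264 bp, and 7 of the 10 genes lay below. The distal peaks lay close by: the nearest was at a median distance of 2023 bp, beside 5981.5 bp, and was nearer than that at all genes but Lefty1 and Skil.

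**Figure D4:**
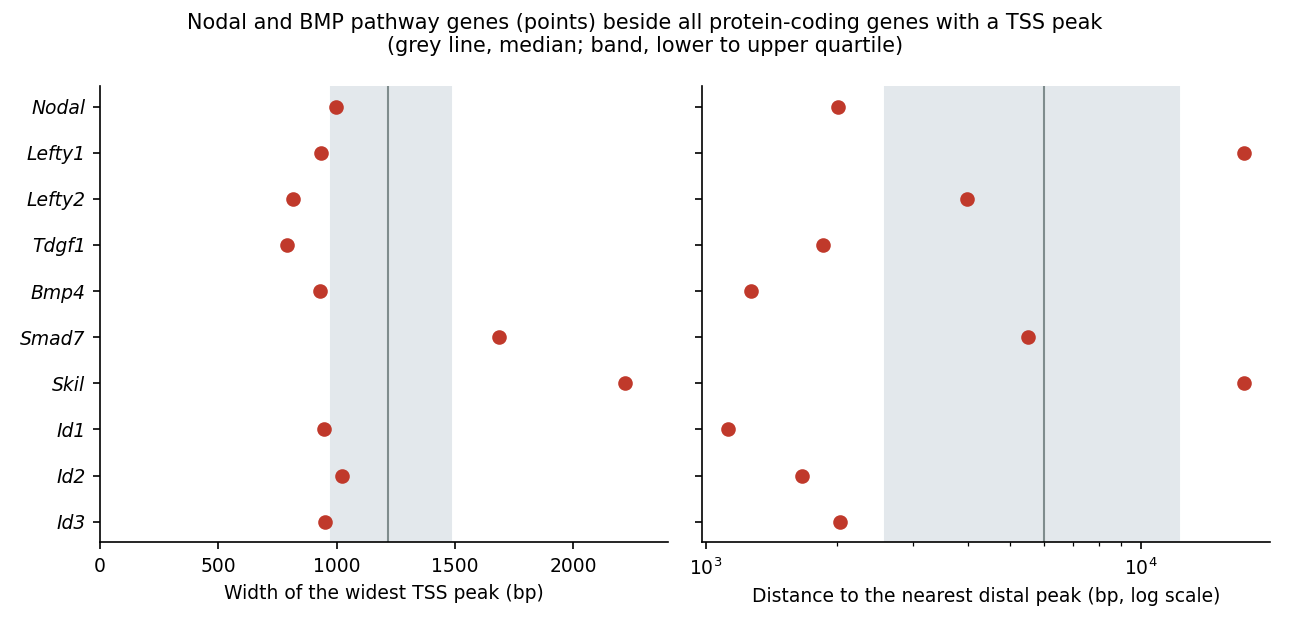
Width of the widest TSS peak (left, bp) and distance to the nearest distal peak (right, bp, log scale) for each of the 10 genes (red points). The grey line and band are the median and quartiles over protein-coding genes with a TSS peak. Skil has the widest TSS peak, of 2218 bp, and Lefty1 and Skil have the farthest nearest distal peaks, at 17.3 and 17.2 kb.

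The 84 distal peaks had a median width of 570.5 bp, beside 415 bp for distal peaks near protein-coding genes with a TSS peak and 380 bp for all distal peaks. A width of at least 1000 bp was found for 13 of 84 (15.5%, interval 9.27 to 24.7%), beside 7.28% of all distal peaks. The widest were the peak of 1810 bp in Ephx1, downstream of Lefty1, and those upstream of Lefty2 and Bmp4 described above. Intergenic sequence held 66 of 84 (78.6%, interval 68.7 to 86.0%), introns 14 and exons 4, whereas 49.6% of all distal peaks were intergenic. More than 50% of the bases were repeat-masked in 1 of 84 peaks, beside 15.5% of all distal peaks. Of the 89797 distal peaks, 51620 lay within 50 kb of a protein-coding gene with a TSS peak. Gene length and distance to genes were not matched, and their part in the intergenic and repeat shares was not tested. Peaks of any kind covered a median of 9.63% of the windows, beside 5.30%. A list merged over many libraries joins peaks that overlap, so widths reflect the number and depth of the libraries as well.

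Closest to the limits of these definitions, the TSS peak farthest from a TSS lay 987.5 bp from one of Kidins220. The farthest peak inside the 50 kb window lay at 49.6 kb, from Id1, and the nearest outside at 50.1 kb, from Lefty1.

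Other genes of the same pathways were counted from fixed lists. Of 25 further genes of Nodal and activin signalling 23 had a TSS peak. The exceptions were Cfc1, which encodes a coreceptor related to CRIPTO, and Cer1, which encodes a secreted inhibitor. All 20 further BMP pathway genes had one. The median number of distal peaks was 8 for the 23 Nodal and activin genes and 5 for the 20 BMP genes with a TSS peak. Per 100 kb of window these medians were 5.50 and 4.13, beside 7.89 for the 10 genes and 4.42 for protein-coding genes with a TSS peak. Most distal peaks lay near Pmepa1, a membrane protein that restrains SMAD signalling, with 23, Zfp423, a SMAD cofactor, with 20, and Smurf1, a ubiquitin ligase for SMADs, with 17. The fewest lay near Smurf2, a second such ligase, with 1, and Acvr1c, a type I receptor, and Cer1, with 2 each. A peak with the BMP response element lay within 50 kb of 3 of these 43 genes with a TSS peak (6.98%), and these, named after their values were seen, were the homeobox genes Msx1 and Msx2 and the BMP antagonist Grem1, with 1 peak each.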

How the data were processed

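The deposited file is a list of regions with chromosome, start and end, the positions being its only values (no count, score or signal). According to the study's methods and the submitters' processing notes, the authors aligned ATAC-seq reads to GRCm38 with STAR 2.6.1c, removed duplicates with Picard, kept reads on the autosomes and sex chromosomes, and merged peaks that MACS2 2.1.1.20160309 had called. Whether peaks were called per library or on pooled libraries is not given in the sources used here. The methods describe removal of regions above 5 kb, but 11 remain. Depth is unknown.

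Positions are 1-based. TSSs came from GENCODE M21 and sequence from RefSeq's GRCm38.p6. RefSeq promoters were found for 5 members (Nodal, Tdgf1, Bmp4, Id2 and Id3), not for Lefty1, Lefty2, Smad7, Skil and Id1, and are not printed. Motifs were matched on both strands, CTCF with up to 1 mismatch. GGCGCC is part of the BMP response element. Shares of matches in the 32851 promoters of the table were 0.0731% for the BMP response element, 1.84% for OCT4::SOX2 and 1.82% for FOXH1, with a match to any of these in 0 of the 5 member promoters. Scripts used Python 3.11.15, numpy 2.4.6, pandas 2.3.3, scipy 1.17.1, numba 0.67.0 and matplotlib 3.10.9, and were tested on simulated data.

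The members and lists were chosen with earlier results of these data known. Named were all members, other pathway genes without a TSS peak or among the 3 with most or fewest distal peaks, and genes with a TSS near a member. Sequences were shown for FOXH1, BMP response element, OCT4::SOX2 and SMAD palindrome matches in TSS and distal peaks of the members (not in TSS peaks of other genes), except those at Smad7, which are not printed here. The Tdgf1 OCT and Id1 GGCGCC stretches were added after the matches were seen. Alternatives were other TSS distances, windows, width limits, TSS sets and peak assignments, joined peaks, 1 gene left out and other mismatch limits.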

Additional observations from a re-analysis of the deposited data

How the results depend on the processing

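No paired analysis was possible because the list holds no value for any sample. All 10 genes kept a TSS peak under the alternatives tried, except with basic transcripts alone (8 of 10). The number of distal peaks depended by construction on the window and the assignment: with 20 kb it was 36 (median 3.5 per gene, beside 2 over protein-coding genes with a TSS peak), with 100 kb 156 (16.5 beside 10), and with each peak given to the nearest TSS alone 33 (3 beside 1). Of the 10 genes 7, 8 and 6 then lay above the background median and 2, 2 and 1 below it. Smad7 had 2, 34 and 9 distal peaks, and Id1 had 8, 24 and 7. Other TSS distances, width limits, TSS sets, joined peaks and positions by any base of the peak gave 71 to 93. The share with an OCT4::SOX2 match was 0% with up to 1 mismatch and 20.2% with up to 3, beside 0.538% and 24.3% of all distal peaks. Leaving out each gene in turn gave 69 to 80 distal peaks, a median of 8 per gene, median widths of 539 to 575 bp for distal and 947 to 951 bp for TSS peaks, and OCT4::SOX2 shares of 2.53 to 4.35%. Without depth or scores, weakly and strongly open regions count alike.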
